A study of Mus musculus with 10 samples.

Results

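The subject of this report is a set of 9 genes of neural stem cells and radial glia. They are the transcription factor genes Sox2, Sox9 and Pax6, the Notch receptor gene Notch1, the HES genes Hes1 and Hes5, the homeodomain gene Hopx, the membrane protein gene Prom1 and the RNA-binding protein gene Msi1. They were chosen by gene symbol, and all 9 were among the 12575 genes of the table. RNA of cerebral cortex was sequenced in 5 BMAL1 aKO and 5 Cre- libraries from mice on a C57BL/6 background, at 4 months of age according to the labels. BMAL1 aKO mice carried Aldh1l1-CreERT2 and Bmal1 fl/fl, so that Cre under the astrocyte promoter of Aldh1l1 deleted the clock gene Bmal1 (symbol Arntl) once tamoxifen had been given. Cre- mice were littermates with Bmal1 fl/fl and no Cre, and they received tamoxifen as well. The text of the study gives an older age and 1 fewer BMAL1 aKO mouse than the labels, and the labels do not say which library that is, so all 10 libraries were compared.

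Sox2 and Sox9 hold neural stem cells in an undifferentiated state, and both stay on in mature astrocytes. Notch receptors are cleaved when a ligand on a neighbouring cell binds them. The freed intracellular domain joins the DNA-binding protein RBPJ and switches on Hes1 and Hes5, which are repressors of neuronal genes. In the adult cortex these genes are known mostly from astrocytes, with Sox2 also in oligodendrocyte precursors and Notch1 also in endothelial cells and neurons. Bulk RNA cannot tell fewer cells of a type from less RNA per cell.

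The promoter of Hes5 is shown because Hes5 is the textbook Notch target of the set, and an upstream stretch of Hopx because it holds the E-box to which BMAL1 dimers bind. Both are RefSeq sequence of GRCm38.p6, written 5′ to 3′ on the strand of the gene, with motif letters in capitals. RefSeq start sites were matched for 6 of the 9 genes, 9 starts in all, and Sox9, Hes1 and Msi1 had no entry. The 250 bases before each start were searched on both strands for the RBPJ motif GTGGGAA, the E-box CACGTG and the N-box CACNAG of HES proteins. The first sequence is chr4:154960673-154960922 on the plus strand and ends at the base before the start of Hes5. The second is chr5:77095298-77095397 on the minus strand and covers 130 to 31 bases before 1 of the 2 starts of Hopx.
Hes5: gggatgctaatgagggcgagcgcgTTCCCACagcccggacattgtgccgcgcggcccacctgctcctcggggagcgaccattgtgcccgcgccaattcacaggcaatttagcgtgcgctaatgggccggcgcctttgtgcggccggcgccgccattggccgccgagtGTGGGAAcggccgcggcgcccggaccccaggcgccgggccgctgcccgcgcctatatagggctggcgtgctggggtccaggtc
Hopx: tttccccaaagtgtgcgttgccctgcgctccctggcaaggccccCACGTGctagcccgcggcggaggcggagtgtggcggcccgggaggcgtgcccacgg

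Hes5 held 2 RBPJ motifs, 1 on the minus strand 226 to 220 bases before the start and 1 on the plus strand 83 to 77 bases before it. At least 1 such motif was in 5.42% of 32851 mouse promoter windows, and more than 1 in 0.161%. None of the other 8 starts held it. The E-box of Hopx lay 86 to 81 bases before the start, and 6.02% of all windows held an E-box. An N-box was in 5 of the 9 starts (those of Notch1 and Prom1, and 1 each of Hopx and Pax6), against 36.7% of all windows, and no match overlapped another. These are matches of letters and were not tested for binding.

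Sequencing gave 23127338 to 47964460 reads per BMAL1 aKO library (median 37058465) and 21844770 to 48295715 per Cre- library (median 40945149). Arntl was at 31.1 to 38.8 CPM (counts per 1000000 reads of the library) in BMAL1 aKO and at 31.9 to 37.1 CPM in Cre- cortex. Since the whole gene was counted in tissue with many other cells, this does not test the labels. Xist, which silences an X chromosome in females, was above 100 CPM in BMAL1 aKO replicates 1 and 4 and in Cre- replicates 2 and 3. Mitochondrially encoded genes took 14.5 to 18.0% of reads in BMAL1 aKO libraries and 6.19 to 19.9% in Cre- libraries, with the lowest shares in Cre- replicates 3 (6.19%) and 4 (9.29%). All 10 of 10 neuronal markers were measured, summing to 10667 to 12857 CPM in BMAL1 aKO and 10831 to 12523 CPM in Cre- cortex. They mark neurons in general and do not test that the tissue was cortex.

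Levels per kilobase of exon put the 9 genes in order. The length was all annotated exon bases of a gene merged, from 1363 for Hes5 to 14232 for Notch1, and the order depends on that choice. Sox2 (13.7 ± 1.73 CPM per kb, SD over 10 libraries) and Sox9 (12.4 ± 2.52) stood first and within each other's spread, with Sox2 above Sox9 in 8 of 10 libraries. Hopx followed at 5.03 ± 1.23 CPM per kb, below Sox9 in all 10 libraries. Msi1 (3.85 ± 1.26) and Hes1 (3.67 ± 0.578) were level, with Msi1 higher in 5 of 10. Notch1 (2.36 ± 0.848) and Hes5 (2.30 ± 1.19) were level too, and Hes5 was above Prom1 (1.75 ± 0.192) in only 6 of 10. Pax6 was lowest at 1.27 ± 0.155 CPM per kb, below Prom1 in all 10 libraries. In reads, Hes5 was the thinnest, with 48 to 287 reads per library.

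**Figure D1:**
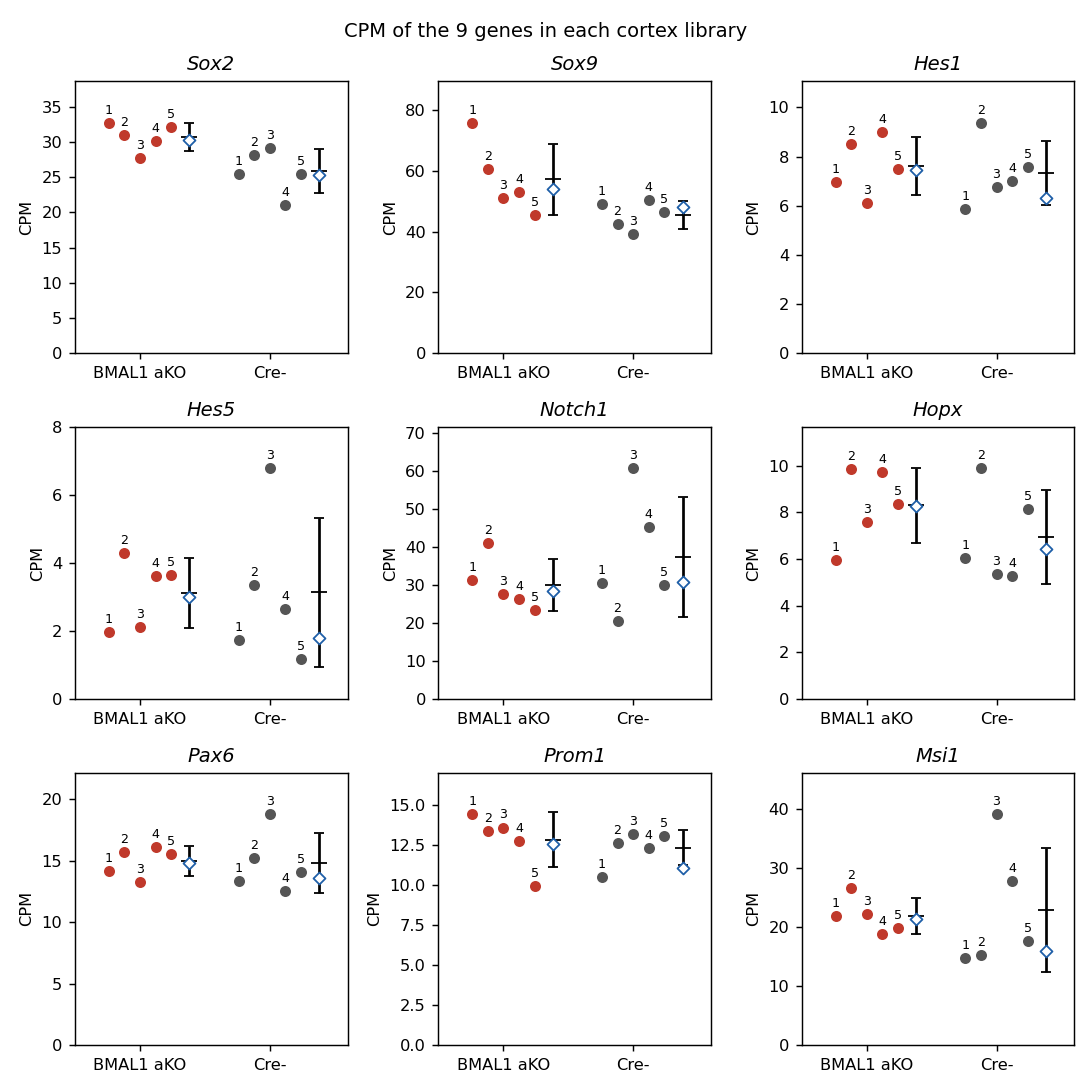
CPM of each gene in the 5 BMAL1 aKO libraries (red) and the 5 Cre- libraries (grey), numbered by replicate. The black bar is the mean with its SD and the blue diamond the mean under sample quality weights; the diamond of Msi1 in Cre- cortex lies at 15.9 CPM, against a plain mean of 22.9 CPM.

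Sox2 (chr3:34650405-34652461, plus strand, GRCm38) is a single-exon gene that lies inside the noncoding gene Sox2ot and shares no exon bases with it. Sox2 was at 32.7, 30.9, 27.7, 30.1 and 32.1 CPM in the BMAL1 aKO replicates 1 to 5, and at 25.4, 28.2, 29.2, 21.1 and 25.4 CPM in the Cre- replicates 1 to 5. All BMAL1 aKO libraries but replicate 3 were above every Cre- library, and replicate 3 lay below Cre- replicates 2 and 3. The means were 30.7 ± 1.99 CPM in BMAL1 aKO and 25.9 ± 3.13 CPM in Cre- cortex (SD, n = 5 each). The log2 fold change was 0.25 ± 0.07 (SE of the fit, adjusted p = 0.176 by limma with sample quality weights). Without weights it was again 0.25, with a standard error of 0.10 (adjusted p = 0.803, limma), so the 10 libraries together did not pass the study's threshold of 0.1 either way. Mean log2 values compared by a two-sided exact permutation test over the 252 splits into 5 and 5 gave p = 0.0238, where the smallest possible is 0.00794. The log2 difference of Sox2 was 0.13 among the 4 libraries with high Xist and 0.33 among the other 6.

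Beside Sox2, the 12 astrocyte markers summed to 7934 to 9560 CPM in BMAL1 aKO and 6947 to 8547 CPM in Cre- libraries, with none at 0. They include Gfap and Aqp4, which the study reports as raised in BMAL1 aKO, so the sum does not measure the number of astrocytes. The 7 markers of oligodendrocyte precursors summed to 244 to 279 CPM in BMAL1 aKO and 207 to 343 CPM in Cre- libraries. Their part in the level of Sox2 was not tested.

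Sox9 (chr11:112782224-112787760, plus strand) specifies glia and is an astrocyte nuclear marker in the adult brain. It was at 75.9, 60.6, 51.0, 53.2 and 45.6 CPM in the BMAL1 aKO replicates 1 to 5, and at 49.1, 42.6, 39.1, 50.4 and 46.4 CPM in the Cre- replicates 1 to 5. The groups overlapped through BMAL1 aKO replicate 5, which lay below 3 of the Cre- libraries. The means were 57.3 ± 11.7 CPM in BMAL1 aKO and 45.5 ± 4.67 CPM in Cre- cortex (SD, n = 5 each). Its log2 fold change was 0.16 ± 0.10 (SE) with weights (adjusted p = 0.398 by limma) and 0.31 ± 0.13 (SE) without them (unadjusted p = 0.0388, adjusted p = 0.803, limma), and the exact permutation p was 0.0556. Most of the plain difference stood in the libraries with high Xist, where the log2 difference was 0.63, against 0.10 in the other 6, but the interaction of sex and genotype did not pass (adjusted p = 0.9999, limma). BMAL1 aKO replicate 1, the highest library for Sox9, also held 1061 CPM of the 3 measured choroid plexus markers, against 13.8 to 30.6 CPM in the other BMAL1 aKO libraries. Cre- replicates 4 and 5 held 279.6 and 929 CPM of these markers with 50.4 and 46.4 CPM of Sox9. The part of choroid plexus RNA in the level of Sox9 was not tested.

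Across all 9 genes none passed the threshold. In limma with sample quality weights, 0 of 9 had an adjusted p at or below 0.1, against 0.334% of the 12573 genes tested. At an unadjusted p below 0.05 there were 4 of 9, Sox2, Msi1, Hes5 and Hopx, all higher, against 16.8% of all genes in either direction. Of the 12573 genes, 858 were higher and 1259 lower at that level. This balance depended on the scaling, since with weights and TMM scaling 1139 of all genes were higher and 778 lower. In that fit 5 of the 9 had an unadjusted p below 0.05 (limma), all higher. There 0 of 9 passed the adjusted threshold, against 68 of 12573 genes. Without weights 0 of 9 passed, against 0.0318% of all genes, and Sox2 and Sox9 were the 2 with an unadjusted p below 0.05, against 4.79%. In voomWithQualityWeights on whole reads 0 of 9 passed, against 0.231% of all genes, and 3 had an unadjusted p below 0.05, against 10.4%. For none of the 9 did the groups stand apart without overlap, as they did for 1% of all genes. The median log2 fold change of the 9 was 0.22 with weights and 0.06 without, where all genes had medians of -0.04 and -0.05. The 9 genes and the gene lists below were chosen with earlier results of these data known. Their shares beside those of all genes are therefore not independent comparisons.

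**Figure D2:**
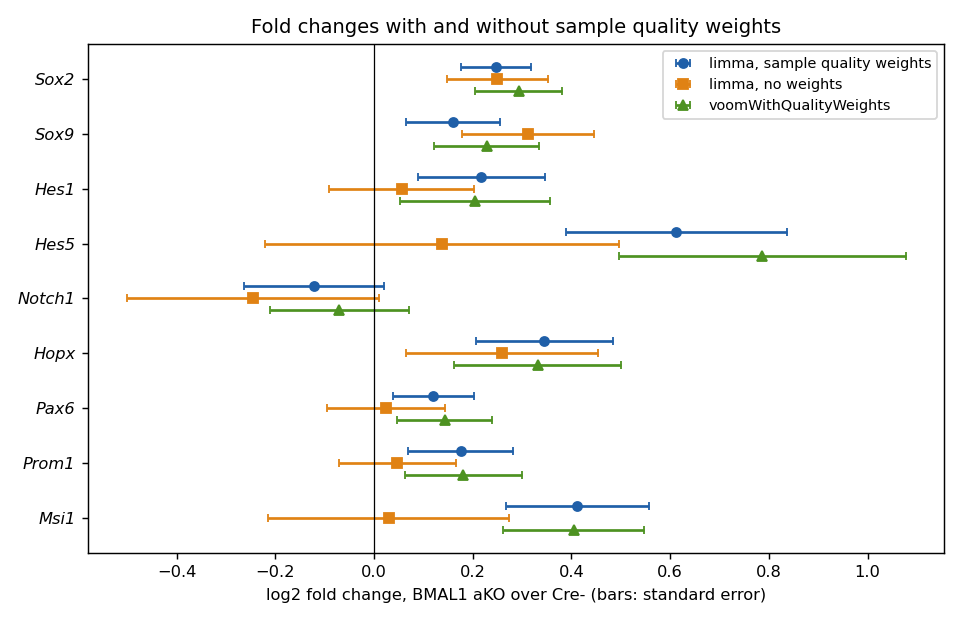
Log2 fold change of BMAL1 aKO over Cre- cortex for each gene, from limma with sample quality weights (blue circles), limma without weights (orange squares) and voomWithQualityWeights (green triangles); bars are the standard error. Sox2 stayed at 0.25 in both limma fits, while Msi1 was at 0.41 with weights and 0.03 without, and Hes5 at 0.61 and 0.14.

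Hes5 (chr4:154960923-154962371, plus strand) encodes a repressor that keeps neural progenitors from becoming neurons. It was at 1.96, 4.28, 2.13, 3.63 and 3.65 CPM in the BMAL1 aKO replicates 1 to 5, and at 1.74, 3.34, 6.79, 2.65 and 1.17 CPM in the Cre- replicates 1 to 5. Cre- libraries held both the highest value, in replicate 3, and the lowest, in replicate 5, so that the BMAL1 aKO values lay inside the Cre- range. The plain means were 3.13 ± 1.03 CPM in BMAL1 aKO and 3.14 ± 2.20 CPM in Cre- cortex (SD, n = 5 each). Under weights the Hes5 means became 2.99 CPM in BMAL1 aKO and 1.78 CPM in Cre- cortex, a log2 fold change of 0.61 ± 0.22 (SE, adjusted p = 0.212 by limma). Without weights it was 0.14 ± 0.36 (SE, unadjusted p = 0.707, limma), and the exact permutation p was 0.754. The log2 difference of Hes5 was -0.73 in the 4 libraries with high Xist and 0.72 in the other 6 (interaction adjusted p = 0.9999 by limma, with 0.0328 before adjustment). Of the exon bases of Hes5, 31.8% are shared with Gm20421 on the opposite strand, so reads of the pair cannot be told apart in libraries that do not mark strand.

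Hes1 (chr16:30064384-30067796, plus strand) encodes the other Notch-driven repressor. It was at 6.96, 8.53, 6.10, 8.99 and 7.49 CPM in the BMAL1 aKO replicates 1 to 5, and at 5.88, 9.38, 6.76, 7.02 and 7.57 CPM in the Cre- replicates 1 to 5. The highest and the lowest Hes1 library were both Cre-. Its log2 fold change was 0.22 ± 0.13 (SE) with weights (adjusted p = 0.396 by limma) and 0.06 without.

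Notch1 (chr2:26457903-26516663, minus strand), the receptor itself, was the 1 gene of the set with a negative log2 fold change. It was at 31.2, 41.0, 27.7, 26.2 and 23.5 CPM in the BMAL1 aKO replicates 1 to 5, and at 30.5, 20.6, 60.6, 45.2 and 29.9 CPM in the Cre- replicates 1 to 5. Cre- replicates 3 and 4 were the highest of all, and Cre- replicate 2 the lowest. The means were 29.9 ± 6.77 CPM in BMAL1 aKO and 37.4 ± 15.7 CPM in Cre- cortex (SD, n = 5 each). The log2 fold change was -0.12 ± 0.14 (SE) with weights (adjusted p = 0.674 by limma) and -0.24 ± 0.26 (SE) without, with an exact permutation p of 0.444. It was -0.30 and -0.21 in the libraries with high and low Xist, and 7.50% of the exon bases of Notch1 overlap 0610009E02Rik on the opposite strand.

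Msi1 (chr5:115429599-115455698, plus strand), whose protein Musashi 1 binds the RNA of the Notch inhibitor Numb and blocks its translation, had different fold changes with and without the weights. It was at 21.8, 26.6, 22.1, 18.9 and 19.8 CPM in the BMAL1 aKO replicates 1 to 5, and at 14.7, 15.2, 39.1, 27.8 and 17.6 CPM in the Cre- replicates 1 to 5. Cre- replicates 1, 2 and 5 were below every BMAL1 aKO library, and Cre- replicates 3 and 4 were above every one. The plain means were 21.8 ± 2.98 CPM in BMAL1 aKO and 22.9 ± 10.5 CPM in Cre- cortex (SD, n = 5 each), and the weighted means were 21.4 CPM in BMAL1 aKO and 15.9 CPM in Cre- cortex. The log2 fold change of Msi1 was 0.41 ± 0.14 (SE) with weights (adjusted p = 0.200 by limma) and 0.03 ± 0.24 (SE) without (unadjusted p = 0.903, limma), and the exact permutation p was 0.913. The log2 difference was -0.27 in the libraries with high Xist and 0.23 in the others.

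Hopx (chr5:77086988-77115121, minus strand) encodes an atypical homeodomain protein of radial glia and quiescent stem cells, which does not bind DNA itself. It was at 5.96, 9.87, 7.58, 9.73 and 8.35 CPM in the BMAL1 aKO replicates 1 to 5, and at 6.05, 9.89, 5.37, 5.30 and 8.13 CPM in the Cre- replicates 1 to 5. The highest library, Cre- replicate 2, was on a par with BMAL1 aKO replicates 2 and 4, and the lowest were Cre- replicates 3 and 4. The log2 fold change of Hopx was 0.34 ± 0.14 (SE) with weights (adjusted p = 0.247 by limma) and 0.26 without, with an exact permutation p of 0.246. Hopxos on the opposite strand shares 27.2% of the exon bases of Hopx.

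Pax6 (chr2:105668900-105697364, plus strand), a factor of cortical progenitors and of some adult astrocytes, and Prom1 (chr5:43993620-44102032, minus strand), which encodes the membrane protein CD133, had close group means. Pax6 averaged 14.97 ± 1.21 CPM in BMAL1 aKO and 14.8 ± 2.43 CPM in Cre- cortex (SD, n = 5 each), with a log2 fold change of 0.12 ± 0.08 (SE) with weights (adjusted p = 0.458 by limma) and 0.02 without. Its highest library was Cre- replicate 3 at 18.8 CPM, against at most 16.1 CPM in BMAL1 aKO cortex. Prom1 averaged 12.8 ± 1.72 CPM in BMAL1 aKO and 12.3 ± 1.09 CPM in Cre- cortex (SD, n = 5 each), with a log2 fold change of 0.18 ± 0.11 (SE) with weights (adjusted p = 0.404 by limma) and 0.05 without. BMAL1 aKO replicate 5 held the lowest Prom1 value, 9.92 CPM, and Cre- replicate 1 the next, 10.5 CPM.

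The weights were uneven. They ran from 0.714 to 1.79 in BMAL1 aKO libraries and from 0.181 (replicate 3) to 7.19 (replicate 1) in Cre- libraries, so that Cre- replicate 1 carried 72.9% of the weight of its group and Cre- replicate 3 carried 1.83%. Cre- replicate 1 was the lowest Cre- library for Hes1, Prom1 and Msi1, and Cre- replicate 3 the highest for Sox2, Hes5, Notch1, Pax6, Prom1 and Msi1. Leaving out Cre- replicate 1 brought the weighted log2 fold change of Msi1 to 0.05 and that of Hes1 to -0.02, and leaving out Cre- replicate 5 brought that of Hes5 to 0.26 and that of Msi1 to 0.10. In those 2 fits the weights were estimated gene by gene.

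Leaving out 1 library changed a call only for BMAL1 aKO replicate 3. Without it Sox2 (log2 fold change 0.29, adjusted p = 0.0704, limma with weights) and Hes5 (0.79, adjusted p = 0.0892) passed, 2 of 9 genes against 6.7% of all genes tested. In that comparison without weights 0 of 9 passed, and the log2 fold changes were 0.29 for Sox2 (adjusted p = 0.815) and 0.24 for Hes5 (adjusted p = 0.856). Over 39 alternative fits the adjusted p ran from 0.0704 to 0.9999 for Sox2 and from 0.0892 to 0.9999 for Hes5 (limma). The sign of Sox2, Sox9 and Hopx was positive and that of Notch1 negative in all 39.

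**Figure D3:**
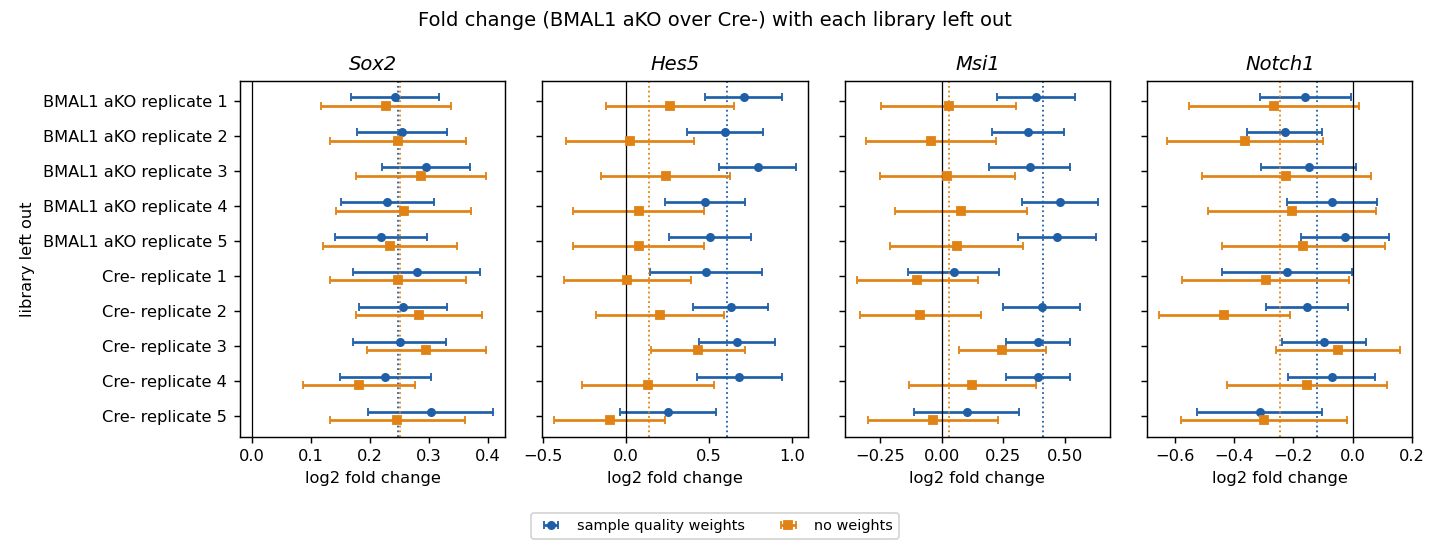
Log2 fold change of BMAL1 aKO over Cre- cortex for Sox2, Hes5, Msi1 and Notch1 when the library named on the left was left out, with sample quality weights (blue circles) and without (orange squares); bars are the standard error and dotted lines the values with all 10 libraries. Sox2 kept between 0.18 and 0.30, while Msi1 without weights lay between -0.10 and 0.25.

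Several of the genes were high or low in the same libraries, within as well as across the groups. Notch1 and Msi1 went together over the 10 libraries (Pearson r = 0.868, permutation p = 0.00116, adjusted p = 0.0261 over 45 relations; Spearman rho = 0.697, permutation p = 0.0296, adjusted p = 0.222). Without the 2 libraries farthest from the median of Msi1 their r was 0.889, and it was 0.916 after the group means were subtracted. Hes5 and Pax6 had r = 0.804 (permutation p = 0.00568, adjusted p = 0.0639; rho = 0.758, permutation p = 0.0150, adjusted p = 0.222), with r = 0.816 without 2 libraries and 0.802 within groups. Hes1 and Hopx had r = 0.763 (permutation p = 0.0133, adjusted p = 0.0995; rho = 0.758, permutation p = 0.0145, adjusted p = 0.222), with 0.853 without 2 libraries and 0.779 within groups. These 3 were the pairs out of 36 with an adjusted Pearson p at or below 0.1, and none had an adjusted Spearman p at or below it. How often other pairs of genes reach such values in these libraries was not tested, so the 3 pairs are not shown to be particular to the set.

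The mitochondrial share of reads moved with the same libraries. Notch1 was lower where this share was higher (r = -0.932, permutation p = 0.000180, adjusted p = 0.00810; rho = -0.879, permutation p = 0.00171, adjusted p = 0.0769), with r = -0.768 without the 2 libraries farthest from the median share and -0.936 within groups. Msi1 had r = -0.783 (permutation p = 0.00794, adjusted p = 0.0715; rho = -0.588, permutation p = 0.0806, adjusted p = 0.403), which dropped to -0.266 without 2 libraries and so rests on them, and was -0.884 within groups. Hopx ran the other way (r = 0.777, permutation p = 0.00455, adjusted p = 0.0639; rho = 0.721, permutation p = 0.0239, adjusted p = 0.222), with 0.539 without 2 libraries and 0.731 within groups. Sox2 and Sox9 had r of 0.430 and 0.255 with the share (permutation p = 0.214 and 0.473, adjusted p = 0.686 and 0.725; rho = 0.406 and 0.0788, permutation p = 0.249 and 0.836, adjusted p = 0.656 and 0.920), 0.355 and -0.296 without 2 libraries, and 0.203 and -0.00986 within groups. What part RNA composition had in the fold changes was not tested.

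**Figure D4:**
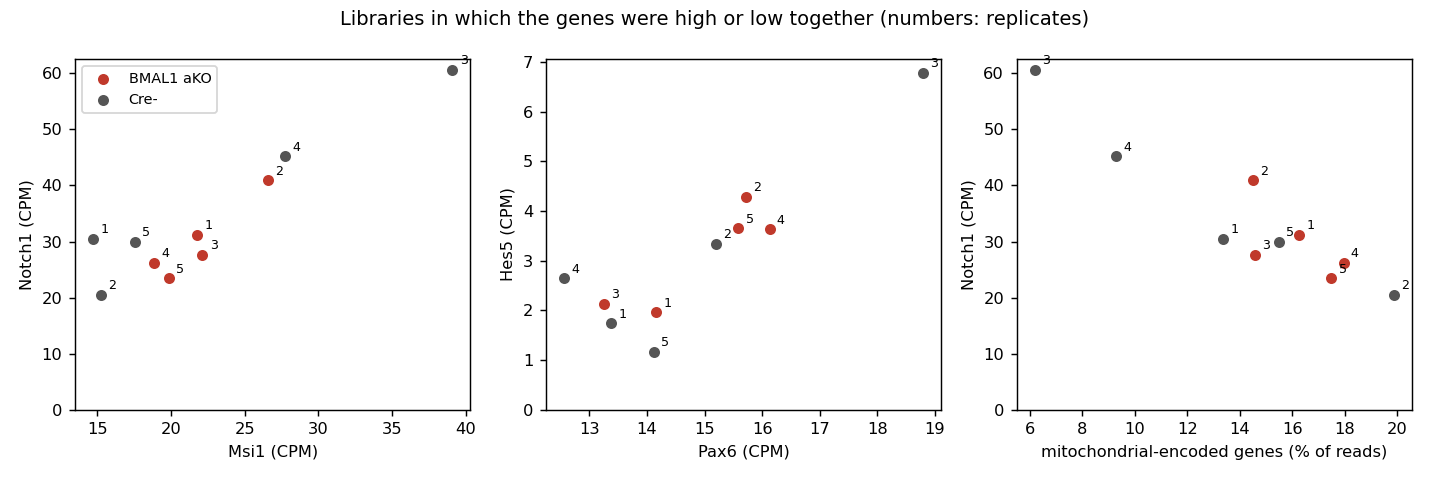
Notch1 against Msi1, Hes5 against Pax6 (all in CPM) and Notch1 against the percentage of reads from mitochondrially encoded genes, 1 point per library, BMAL1 aKO in red and Cre- in grey, with replicate numbers. Cre- replicates 3 and 4, with 6.19 and 9.29% mitochondrial reads, held the most Notch1 and Msi1, and points of both groups lie along the same trends.

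Of 42 other genes of the Notch pathway 38 were measured, and none passed in limma with weights, without weights or in voomWithQualityWeights. An unadjusted p below 0.05 was found for 4 of the 38 with weights (1 higher and 3 lower), against 16.8% of all genes (858 of 12573 higher and 1259 lower). Without weights there were 0, against 4.79%, and in voomWithQualityWeights 1, against 10.4%. With weights and TMM scaling there were 3 (1 higher and 2 lower), where 1139 of all 12573 genes were higher and 778 lower. With weights 11 of the 38 had a positive log2 fold change, against 4828 of all 12573 genes. Their median was -0.07, against -0.04 for all genes. Without weights 7 of the 38 were positive, against 4651 of all genes, with medians of -0.10 and -0.05. After TMM scaling, with weights, 13 of the 38 were positive, against 6185 of all genes, with medians of -0.02 and -0.003. Among the ligands, Jag1, which activates Notch on neighbouring cells, averaged 11.1 ± 0.869 CPM in BMAL1 aKO and 8.996 ± 2.03 CPM in Cre- cortex (SD, n = 5 each), with a log2 fold change of 0.30 ± 0.10 (SE, adjusted p = 0.183 by limma) with weights and 0.31 without. Dll1 and Jag2 were at -0.09 and -0.07 with weights, and at -0.35 and -0.18 without. The receptors Notch2, Notch3 and Notch4 lay between 0.06 and 0.15 with weights, and none of them passed. Without weights these receptors turned to -0.04, -0.11 and -0.07.

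In the nuclear complex, Snw1, a co-regulator of RBPJ targets that also works in splicing, had a log2 fold change of -0.23 ± 0.08 with weights (SE, adjusted p = 0.198 by limma), with 25.3 to 32.2 CPM in BMAL1 aKO and 27.5 to 34.9 CPM in Cre- cortex. Without weights it was -0.12 (unadjusted p = 0.268, limma). Maml3, a Mastermind co-activator, had one of -0.46 ± 0.18 (SE, adjusted p = 0.230 by limma), with 10.3 to 21.5 CPM in BMAL1 aKO and 13.5 to 25.2 CPM in Cre- cortex. Without weights it was -0.23 (unadjusted p = 0.299, limma). Mib1, the ubiquitin ligase that lets ligands be taken up, had one of -0.16 ± 0.06 (SE, adjusted p = 0.245 by limma) with weights and -0.09 (unadjusted p = 0.347, limma) without. The 6 genes of trafficking and turnover ran from -0.16 to -0.05, and from -0.10 to 0.01 after quantile normalization, where 1 of them turned positive. Without weights Fbxw7, a ubiquitin ligase subunit that marks the Notch intracellular domain for decay, turned to 0.11. The 5 measured genes of the HES and HEY families and other targets ran from -0.17 to 0.03 with weights. Without BMAL1 aKO replicate 3, 2 of the 38 (Itch and Snw1) passed as lower with weights, where 6.7% of all genes passed, and none passed without weights.

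**Figure D5:**
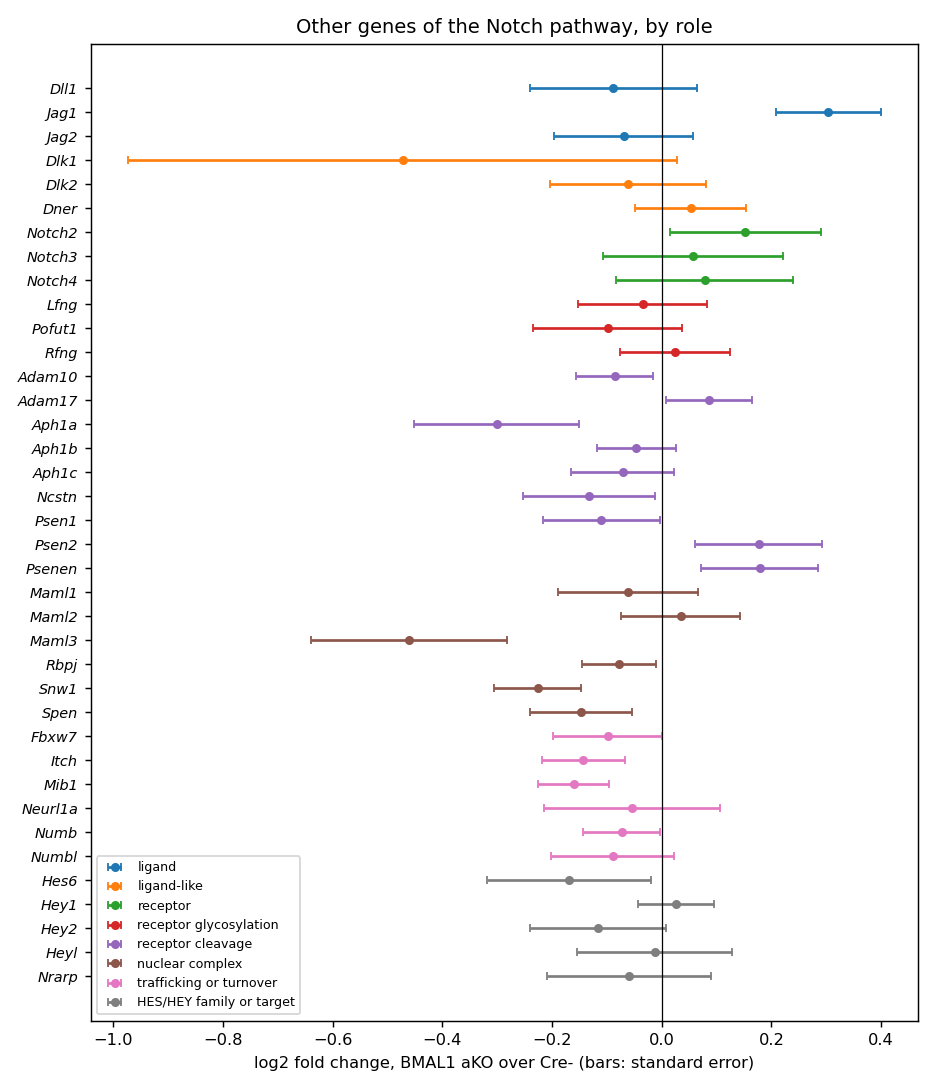
Log2 fold change of BMAL1 aKO over Cre- cortex, from limma with sample quality weights, for the 38 other Notch pathway genes, coloured by role; bars are the standard error. Values run from -0.47 to 0.30, with Jag1 the highest, and none passed the threshold.

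Of 30 other genes of radial glia and progenitors 27 were measured. With weights 2 rose and 0 fell, against 0.334% of all genes called in either direction. An unadjusted p below 0.05 was found for 7 of the 27 with weights (all higher), against 16.8% of all genes (858 of 12573 higher and 1259 lower). Without weights there were 6, against 4.79%, and in voomWithQualityWeights 8, against 10.4%. With weights and TMM scaling there were 8 (all higher), where 1139 of all 12573 genes were higher and 778 lower. The list was drawn up with earlier results of these data known, and the study names Fabp7 as its most strongly raised gene. Fabp7, which encodes a lipid carrier of the radial glial lineage, was at 90.8 to 236.6 CPM in BMAL1 aKO and 9.94 to 19.9 CPM in Cre- cortex (log2 fold change 3.53 ± 0.21 SE, adjusted p = 3.06e-06 by limma). Ednrb, an endothelin receptor of astrocytes, was at 74.2 to 102.5 CPM in BMAL1 aKO and 54.3 to 71.4 CPM in Cre- cortex (0.57 ± 0.09 SE, adjusted p = 0.0210 by limma). Ptprz1 and Egfr, both receptors of progenitors and glia, had values of 0.34 and 0.24 and did not pass (adjusted p = 0.162 and 0.238, limma). Without weights they were at 0.38 and 0.22, and Ednrb at 0.45. Among the 27 the groups did not overlap for Fabp7, Ednrb, Ptprz1 and Il6st (Il6st 0.13, adjusted p = 0.249 by limma with weights), as for 1% of all genes. Without weights Fabp7 alone passed, against 0.0318% of all genes. It was also alone without BMAL1 aKO replicate 4, Cre- replicate 1 or Cre- replicate 5, where 10, 1 and 5 of 12573 genes passed. The median of the 27 was 0.08 with weights, against -0.04 for all genes.

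Of 40 other transcription factors of neural fate 36 were measured and none passed in limma with weights, without weights or in voomWithQualityWeights. The median log2 fold change of the 36 was 0.07 with weights, against -0.04 for all genes. An unadjusted p below 0.05 was found for 4 of the 36 with weights (all higher), against 16.8% of all genes (858 of 12573 higher and 1259 lower). Without weights there were 3, against 4.79%, and in voomWithQualityWeights 5, against 10.4%. With weights and TMM scaling there were 7 (all higher), where 1139 of all 12573 genes were higher and 778 lower. The 4 of smallest p with weights were Lhx2, a cortical selector gene kept in astrocytes (log2 fold change 0.26, adjusted p = 0.183, limma), Olig1 of the oligodendrocyte lineage (0.38, adjusted p = 0.183, and 0.19 without weights), Sox21, a repressor of the SOX family (0.34, adjusted p = 0.192), and Emx2, a cortical patterning gene (0.24, adjusted p = 0.272, and 0.43 without weights).

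Genes whose log2 values went most closely with each of the 9 over the 10 libraries, after the group means were subtracted, are given as a description. For Sox2 these were Cdo1 (r = 0.938) and Rev1 (0.902), and for Sox9 Ctsl (0.933) and Ccnk (0.926). Hes1 went with Tceal1 (0.890) and Ifi30 (0.882), and Hes5 with Babam2 (0.977) and Vhl (0.975). Notch1 had the closest partners of all, Zgpat (0.996) and Deaf1 (0.994), followed by Msi1 with Mlxipl and Bcan (both 0.983). Hopx went with Vcam1 (0.969) and C3ar1 (0.968), Pax6 with Tunar (0.975) and Tmem176b (0.956), and Prom1 with Tbx18 (0.949) and Ell (0.941). Each r shares the same 10 libraries and was picked as the highest among 12573 genes.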

How the data were processed

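The deposited values are CPM per gene, which the authors made from paired reads aligned with STAR 2.5.1a to GRCm38 (Ensembl release 76) and counted by featureCounts 1.4.6-p5. The low-input SMARTer kit does not mark strand, and the labels do not tie libraries to animals, so p-values measure only the spread between these libraries, which may be technical. The CPM summed to 99.12 to 99.27% of 1000000 per library, hence without the TMM scaling the study used for its test, and every value was a whole read within 0.01 read. Replicates differed by more than sampling noise (chi-square per degree of freedom 12.9 to 447). Ribosomal genes were not removed.

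The 9 genes and the gene lists were chosen with earlier results of these data known. The 12573 genes that exceeded 1 CPM in 4 or more libraries were fitted as log2(CPM + 0.5), a scale that understates changes of low genes, with limma 3.58.1 in R 4.3.3, sample quality weights (arrayWeights, up to 500 iterations), a variance trend and Benjamini-Hochberg adjustment over all genes, threshold 0.1. Where the weights did not converge they were estimated gene by gene. The study's voomWithQualityWeights, run on the recovered whole reads, was an alternative, with TMM and median-of-ratios factors from code written for this work rather than from their packages, beside other weights, scalings, pseudocounts, filters, priors, a replicate block, a sex covariate (Xist above 100 CPM) and left-out libraries. Single genes also had two-sided exact permutation tests, 1 for each of the 9, not adjusted. Correlations used 100000 resamples. The fit was checked on simulated data for recovery of known changes only, with no limit set on false calls. From each list the genes past the threshold and the 4 of smallest p are named, and for each of the 9 genes the 2 of highest r. Positions and exon overlaps come from GENCODE M21 (GRCm38), where 12534 of 12575 symbols matched 1 gene.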

Additional observations from a re-analysis of the deposited data

Results flagged for a closer look

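Of 44 groups of values looked at, 18 held levels of the 9 genes and the rest held sums of the gene and marker lists. In 5 of the 44 a library was far from the other 4 of its group, where chance gives about 1 in 20. All 5 were sums of markers of other cell types. Of the 18 groups that hold levels of the 9 genes, none had such a library. The choroid plexus markers summed to 1061 CPM in BMAL1 aKO replicate 1, with the next BMAL1 aKO library at 30.6 CPM, and to 929 CPM in Cre- replicate 5, with the next Cre- library at 279.6 CPM. The neuroblast markers were lowest in BMAL1 aKO replicate 1 at 122.3 CPM, the next being 129.6 CPM, and highest in Cre- replicate 3 at 191.9 CPM, the next being 136.3 CPM. That Cre- library also held the most Hes5, Notch1, Pax6 and Msi1. It was highest as well for the markers of oligodendrocyte precursors (343 CPM) and microglia (361 CPM). For the astrocyte markers (6947 CPM) and the mitochondrial share (6.19%) it was the lowest. The endothelial markers were lowest in BMAL1 aKO replicate 5 at 218.7 CPM, the next being 268.3 CPM.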

How the results depend on the processing

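None of the 9 genes passed in 38 of 39 alternative fits, and leaving out single libraries gave 0 to 2. Over all genes the count was 42, and 4 without weights, also with TMM scaling, quantile normalization or voom, 21 with gene-by-gene weights, 68 with TMM scaling, 65 with quantile normalization, 22 with the sex covariate, 20 at a threshold of 0.05, 29 with voomWithQualityWeights, and 1 without weights and without both Cre- replicates 1 and 3. Single libraries left out gave 1 (Cre- replicate 1) to 843 (BMAL1 aKO replicate 3), or 3 to 6 without weights. The other Notch pathway genes gave 0 to 2, the radial glia and progenitor genes 1 to 4, and the neural fate factors 0 to 1. The radial glia and progenitor count was 1 in every fit without weights. The fits that combine no weights with another choice were chosen after seeing the data.

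No pairing by replicate number was seen (the deviations of libraries with the same number had r from -0.63 to 0.36 over 5 pairs, the own number the best match for 0). With the replicate block, 7 genes passed with weights and 2 without, 0 of the 9 and 1 radial glia and progenitor gene in both, and Prom1 turned to -0.10.

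Directions of small fold changes turned when libraries were left out. With 1 library out, with or without weights, Hes1 ran from -0.020 to 0.33, Hes5 from -0.10 to 0.79, Pax6 from -0.029 to 0.19, Prom1 from -0.025 to 0.28 and Msi1 from -0.10 to 0.48. Hes1 was at -0.068 without weights and without both Cre- replicates 1 and 3. The cause was not tested. The planned count-model tests were not run, although the CPM gave whole reads, and voom on those reads is the nearest fit that was. Precision was set by the spread between libraries, except that Hes5 in Cre- replicate 5 rested on 48 reads.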
